A study of Triticum aestivum with 12 samples.

Results

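Roots of wheat that stood in low potassium (K) while the other part of the same root system stood in normal K were compared with roots of plants in normal K on both sides. The first group is the low-K side of split roots (Sp. LK, 3 arrays) and the second is uniform normal K (C. NK, 3 arrays), so 6 of the 12 arrays of the series entered the comparison directly. In Sp. LK the local supply was 0.005 mmol/L of K2SO4 and the other compartment held 1.0 mmol/L, while in C. NK both compartments held 1.0 mmol/L. The other 6 arrays were of uniform low K (C. LK, 0.005 mmol/L on both sides) and of the normal-K side of split roots (Sp. NK, 1.0 mmol/L locally and 0.005 mmol/L on the other side). All plants were seedlings of the K-efficient wheat genotype Tongzhou916 that had first grown in normal K, were 3 weeks old when moved to the split-root system, and were kept there for 5 days. Each array is described as a biological replicate pooled from several plants of this single genotype.

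The comparison addresses how far roots in local low K stay from fully supplied roots when the rest of the root system has K. K is the main cation of plant cells, where it balances charge, carries turgor and activates enzymes. Roots take it up through channels and high-affinity transporters driven by the proton gradient of the plasma membrane H+-ATPase, and plants short of K usually raise transcripts of high-affinity transporters. Root cells pay for this uptake with respiration, and stressed roots also raise enzymes that detoxify peroxides, among them glutathione transferases, which join glutathione to reactive compounds.

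Each probe set of the Affymetrix Wheat Genome Array measures a transcript or several alike ones. Wheat carries closely related copies of most genes on its subgenomes, and probe sets whose names end in s_at or x_at can bind several of them. The array holds 61290 probe sets, and setting aside its 175 controls gave 61115 for the tests. The 26541 brighter probe sets, with a mean log2 signal of 7 or more over the 12 arrays, carry the account below. The annotation gives a gene symbol to 1273 probe sets, mostly a numbered locus (LOC) with no description, so a probe set without a symbol is described by its category in the list of key genes of the study or by its rank. A role is stated only where that list or a gene name gives one.

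The oligonucleotides below are the qRT-PCR primers of the study for a pair of probe sets. LOC543226 is shown as the brighter of the probe sets that the study lists under potassium ion transport. The second target has no symbol, was picked after its value was seen (a log2 difference of 0.96) and is the only probe set among the 12 primer targets that was past the study thresholds here. Of all probe sets, 3.5% were past them in either direction. Larger differences, of -2.54 and -2.03, were those of other primer targets that did not pass. Capitals mark the last 5 bases at the 3′ end, from which the polymerase extends.
LOC543226 forward: tgccaggacaaaccatACAGC
LOC543226 reverse: gccttccatagagcatGACCA
Second target forward: tgttcggttgcttgatgtAGTAG
Second target reverse: cacgcattataaattTTGGG

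Among the brighter probe sets, those of the low-K side of split roots mostly lay close to uniform normal K. For 14811 of the 26541 brighter probe sets (55.8%), the 95% confidence interval of the difference lay wholly within a 1.5-fold change in either direction, and 761 (2.87%) differed by more than 1.5-fold. Over the whole array, dim probe sets included, the interval lay within 1.5-fold for 14823 of 61115 (24.3%) and the difference was above 1.5-fold for 16600 (27.2%). Among the brighter ones the median log2 difference, Sp. LK minus C. NK, was 0.00377, and the 5th and 95th percentiles were -0.334 and 0.416. The study thresholds ask for a change of over 1.5-fold at an unadjusted p under 0.05. By them, 304 brighter probe sets (1.15%) were higher in Sp. LK and 106 (0.399%) were lower. After quantile normalization the split was 255 higher and 152 lower, so that the share of higher probe sets went from 74.1% to 62.7%. An unadjusted p under 0.05 was found for 1198 brighter probe sets (4.51%), where 1327 would be reached if none differed. No probe set passed Benjamini-Hochberg adjustment in limma, and the smallest adjusted p was 0.277. After adjustment the methods' t-test gave 0, a floor at a signal of 32 gave 8 and a fit with no variance trend gave 1.

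Without C. NK replicate 1, the counts at the study thresholds were 529 higher and 288 lower. Without Sp. LK replicate 1 the number of lower probe sets was 182, and without Sp. LK replicate 3 it was 244. Among all 61115 probe sets, 1343 (2.2%) were higher and 794 (1.3%) were lower, with 2930 at an unadjusted p under 0.05 and 3056 to be reached if none differed.

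**Figure D1:**
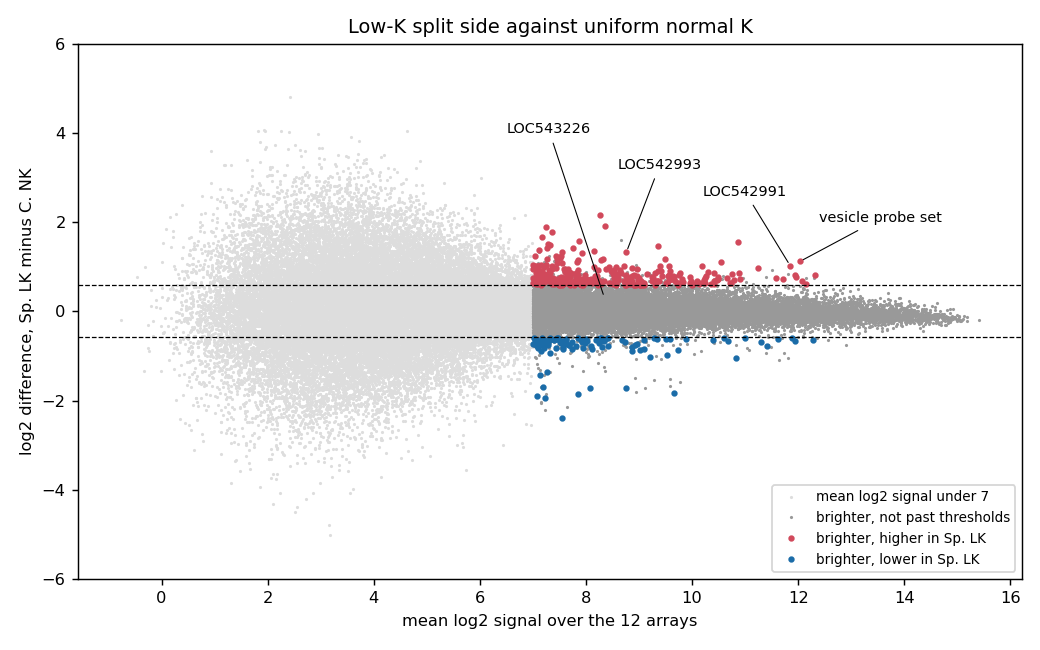
Log2 difference between Sp. LK and C. NK (vertical axis) against the mean log2 signal over the 12 arrays (horizontal axis), 1 point per probe set, with dashed lines at a 1.5-fold change and the most different vesicle probe set of the list of key genes marked. The 304 brighter probe sets higher in Sp. LK are red and the 106 lower ones blue; the scatter narrows as the signal rises, and LOC543226 lies inside the dashed lines.

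The share of probe sets past the study thresholds fell with signal. It was 5.46% of those with a mean log2 signal under 5, 2.52% of those between 7 and 9, 0.953% between 9 and 11 and 0.421% between 11 and 13. None of the 1058 brightest, at 13 or more, passed, and 88.4% of them had an interval within 1.5-fold. The median standard error of the log2 difference was 0.986 in the dimmest class and 0.129 in the brightest. Changes were mostly small: 59 brighter probe sets passed with more than a 2-fold difference, 47 higher and 12 lower.

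Every array of Sp. LK lay beyond every array of C. NK for 2426 brighter probe sets (9.14%), of which 1303 (4.91%) were higher and 1123 (4.23%) lower. Measured as 1 minus Pearson's r over the brighter probe sets, 2 arrays of different groups were 0.0309 apart on average and 2 arrays of the same group 0.032. The difference of -0.00107 was not distinguishable from 0 (exact permutation test over the 20 splits of the 6 arrays, two-sided p = 0.8, with 0.1 the smallest p possible). Its sign turned without Sp. LK replicate 1, without Sp. LK replicate 3 or without C. NK replicate 1.

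Among the 6 pairs of groups, the root mean square log2 difference of group means over the brighter probe sets was 0.244 for Sp. LK with C. NK. It was 0.26 for C. LK with C. NK and 0.328 for Sp. LK with C. LK, the roots that shared the local low supply. The sides of the split roots were 0.202 apart, and Sp. NK was 0.232 from C. NK and 0.293 from C. LK. The differences among these distances were not tested, and the pairs share arrays. The share of brighter probe sets with an interval within 1.5-fold was 54.2% for C. LK with C. NK, close to the 55.8% given above for Sp. LK with C. NK. It was 49.6% for Sp. LK with C. LK and 61.7% for Sp. LK with Sp. NK.

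**Figure D2:**
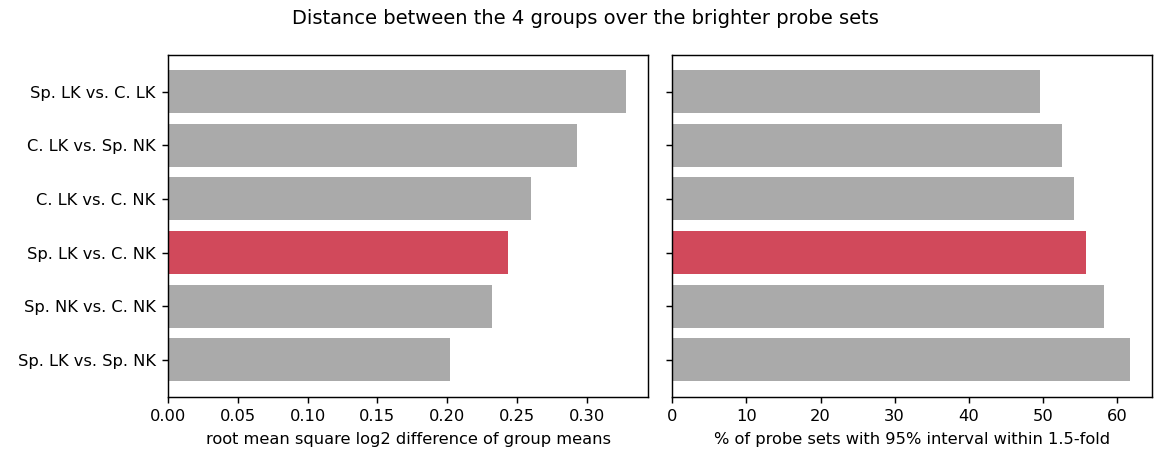
Root mean square log2 difference of group means (left) and percentage of probe sets whose 95% interval lay within 1.5-fold (right) for the 6 pairs of groups over the 26541 brighter probe sets, with Sp. LK vs. C. NK in red. By both measures Sp. LK was nearer to C. NK (0.244, 55.8%) than to C. LK (0.328, 49.6%), and nearest to Sp. NK (0.202, 61.7%). C. LK lay at a like distance from C. NK (0.26, 54.2%), and the differences among the distances were not tested.

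Some measures of the samples did not overlap between the groups, as was the case for 9.14% of the brighter probe sets. The log2 difference between the 3′ and 5′ control probe sets of actin was -2.00 to -0.33 in Sp. LK and -3.87 to -2.16 in C. NK, without overlap, while those of the other 5 control genes overlapped. For actin it was -1.51 to -0.99 in C. LK and -2.48 to -1.17 in Sp. NK. The summed signal of 34 probe sets of photosynthesis genes, used as shoot markers, was 6862 to 7733 in Sp. LK and 8585 to 11177 in C. NK, also without overlap. Only 6 of the 34 were brighter probe sets, of which 3 were lower and 3 higher in Sp. LK. The median log2 difference over the 34 was 0.03. The sum is on a linear scale, so its brightest members, such as probe sets of the Rubisco gene rbcL given below, weigh most in it. The pattern list planned for nutrient and metal uptake in roots matched 0 gene names, so the root identity was not checked by it. The summed signal of 25 grain probe sets was 7619 to 9220 in Sp. LK and 6820 to 8157 in C. NK. The part of these measures in the differences below was not tested. In whole roots, fewer cells of a type and less RNA per cell cannot be told apart.

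The K transport gene LOC543226 was near the level of fully supplied roots. Its normalized signals, on a linear scale, were 369, 371 and 154 in Sp. LK and 248, 285 and 158 in C. NK. Both groups thus overlapped, with Sp. LK replicate 3 the lowest of the 6 arrays. The means were 298 ± 125 (SD, n = 3) and 230 ± 65.7 (SD, n = 3), a log2 difference of 0.31 with a standard error of 0.32 and a 95% interval from -0.38 to 0.99. The interval leaves room for a rise of up to nearly 2-fold, so equal levels were not shown, and without Sp. LK replicate 3 the difference was 0.73 and past the study thresholds. In C. LK the signals of this gene were 738, 1055 and 699, above every array of the other groups. The log2 difference of C. LK from C. NK was 1.87, and that of Sp. LK from C. LK was -1.56. These comparisons share arrays with that of Sp. LK and C. NK, and the study listed the gene for its lower level in Sp. LK than in C. LK.

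The other probe set that the study lists under potassium ion transport, which has no symbol, gave 109, 136 and 88.1 in Sp. LK and 117, 132 and 71.9 in C. NK. The ranges overlapped almost wholly. The log2 difference was 0.08 (standard error 0.31, 95% interval -0.60 to 0.75), against 0.79 for C. LK minus C. NK, where C. LK gave 178, 165 and 195. This probe set lies just under the brightness limit.

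Genes that move protons and calcium were near the level of fully supplied roots. The brightest probe set of LOC543149, the plasma membrane H+-ATPase gene ha1, had a mean signal of 29378 ± 1833 (SD, n = 3) on the low-K side and of 28655 ± 2180 (SD, n = 3) under uniform normal K. Its log2 difference was 0.04 with a 95% interval from -0.26 to 0.34, and those of its other probe sets were -0.10 and -0.11. LOC543074, which encodes the calcium-permeable cation channel TPC1, differed by 0.14 (95% interval -0.21 to 0.50). Of the 5 brighter probe sets for K, proton and calcium transport, 4 had an interval within 1.5-fold, 0 were past the study thresholds and LOC543226 was the fifth.

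The log2 differences of the probe sets that the study lists for oxygen and respiration differed in sign. The only negative one, under oxygen transport, had an interval that included 0, so opposite directions were not shown. LOC543086, under oxygen transport, gave 583, 507 and 453 in Sp. LK and 506, 584 and 854 in C. NK, with overlapping arrays. The log2 difference was -0.30 (standard error 0.19, 95% interval -0.71 to 0.10), and the mean in C. LK was 840. The probe set under respiratory gaseous exchange gave 496, 467 and 353 in Sp. LK and 296, 358 and 308 in C. NK. Only the lowest Sp. LK array lay within the C. NK range. The log2 difference was 0.44 (standard error 0.22, 95% interval -0.04 to 0.92) and was past the thresholds only without Sp. LK replicate 3, at 0.59.

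The probe set under cellular respiration was higher on the low-K side of split roots. Its signals were 752, 927 and 683 in Sp. LK and 526, 404 and 383 in C. NK. All Sp. LK arrays lay above all C. NK arrays. The log2 difference was 0.85 (standard error 0.20), a 1.8-fold difference with an adjusted p of 0.983. The mean was 430 in C. LK and 756 in Sp. NK, so that both sides of the split roots were near each other and both uniform treatments were near each other. The study listed this probe set for a rise in Sp. NK over C. NK, so this pattern partly follows from that choice.

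The 4 probe sets that the study lists under glutathione transferase were higher on the low-K side of split roots than in uniform normal K. Of other probe sets related to them, some passed and some did not. All 4 passed the study thresholds with separate arrays, against 1.15% of the brighter probe sets. The names of all 4 end in x_at, so they may bind several alike transcripts and need not be separate rises. Of the brighter x_at probe sets, 1.44% were higher. The study selected them for a rise in Sp. NK over C. NK, a comparison that shares the C. NK arrays, so their direction here is not independent evidence. LOC542993 gave 985, 717 and 718 in Sp. LK and 322, 337 and 294 in C. NK. Even the lowest Sp. LK array was well above the highest C. NK array. The log2 difference was 1.33 (standard error 0.26), a 2.51-fold difference with an adjusted p of 0.822.

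LOC542991, a bright probe set, gave 5039, 6020 and 5187 in Sp. LK and 2904, 3084 and 2065 in C. NK. Its log2 difference was 1.03 (standard error 0.20), a 2.04-fold difference with an adjusted p of 0.787. LOC542992 gave 4929, 6434 and 5834 in Sp. LK and 3238, 4063 and 3864 in C. NK. It differed by 0.62 on the log2 scale (standard error 0.15), just past the fold threshold, and missed the thresholds without Sp. LK replicate 2 or without C. NK replicate 1. The fourth, with no symbol, gave 668, 860 and 447 in Sp. LK and 391, 415 and 284 in C. NK, a log2 difference of 0.83 (standard error 0.31). It missed the thresholds in the methods' t-test, without Sp. LK replicate 2 or without C. NK replicate 3.

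The 4 probe sets had means in C. LK close to or below those of C. NK. The C. LK means were 261 for LOC542993, 2742 for LOC542991, 3610 for LOC542992 and 267 for the probe set without a symbol. In Sp. NK the means were 583, 4873, 5697 and 624 in the same order, so that the level was high on both sides of the split roots. Other brighter probe sets with the symbols LOC542992 and LOC542993 moved less. The other brighter probe set of LOC542992 differed by 0.40 with separate arrays, and that of LOC542993 by 0.25 with overlapping arrays. The 3 brighter probe sets of LOC543412, the zeta-class glutathione transferase gene GSTZ1, lay between -0.10 and 0.14. By contrast, brighter probe sets whose names carry the same cluster number as the fourth, also without a symbol, differed by 0.80 and 0.83. Both were past the study thresholds, also with any 1 array left out.

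**Figure D3:**
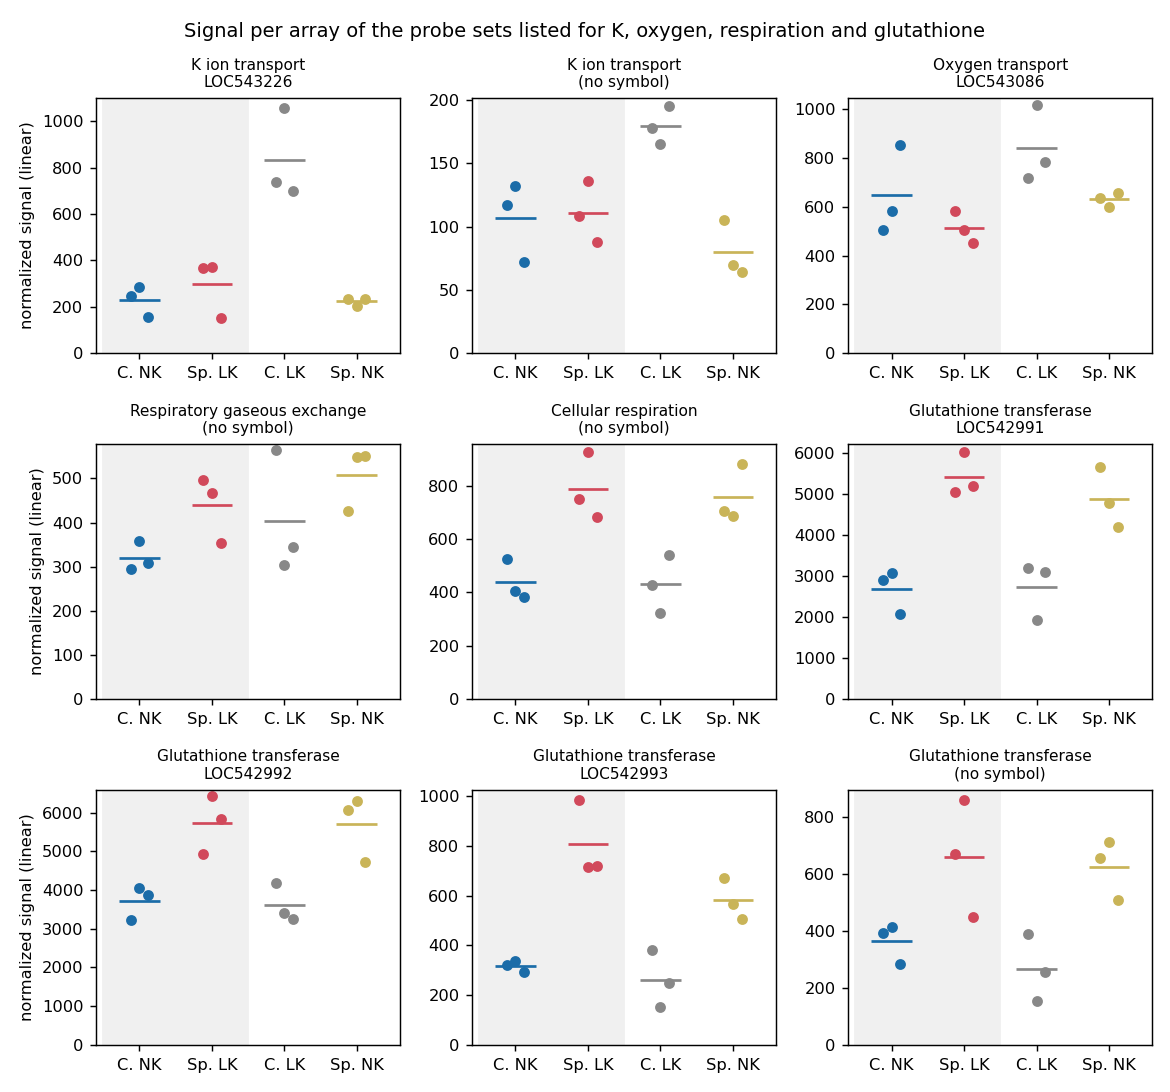
Normalized signal (linear axis from 0) of each array of the 4 groups, with group means as bars, for the probe sets that the study lists under K ion transport, oxygen transport, respiration and glutathione transferase; the shaded columns are C. NK and Sp. LK. LOC543226 stood at 298 in Sp. LK and 230 in C. NK against 831 in C. LK, while for the 4 glutathione transferase probe sets each Sp. LK array lay above each C. NK array.

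Among brighter probe sets with a gene symbol, 11 of 793 (1.39%) were higher and 2 (0.252%) lower, shares near those of all brighter probe sets. Among those past the thresholds, and apart from the glutathione transferases, the largest difference was that of LOC100037560, with 243, 327 and 218 in Sp. LK and 167, 130 and 112 in C. NK. Its log2 difference was 0.95 (standard error 0.30), but a brighter probe set of the same gene differed by 0.11. LOC606366 gave 1784, 1945 and 1789 in Sp. LK and 773, 955 and 1401 in C. NK. It differed by 0.86 (standard error 0.23), and 3 further probe sets of the gene by 0.23 to 0.42 without passing.

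LOC100037538, whose probe set carries the same cluster number as that of LOC542992, gave 3304, 5552 and 3901 in Sp. LK and 1836, 2757 and 2988 in C. NK. It differed by 0.75 (standard error 0.24), and its mean of 4033 in Sp. NK was also above C. NK. It missed the thresholds in the methods' t-test, without Sp. LK replicate 2, at 0.54, or without C. NK replicate 1, at 0.53. The remaining rises with separate arrays were those of LOC543479 (0.75), LOC543216 (0.64), LOC543252 (0.64) and LOC542922 (0.62). Without C. NK replicate 3 all 4 missed the thresholds, at 0.63, 0.56, 0.55 and 0.48 in the same order. They also missed them without Sp. LK replicate 3 (LOC543479), without Sp. LK replicate 2 or C. NK replicate 1 (LOC543216), without Sp. LK replicate 2 (LOC543252), and without Sp. LK replicate 1 or 3 (LOC542922). In the methods' t-test LOC543216 and LOC543252 missed them as well. LOC543216 also missed them with array weights, and LOC542922 with no variance trend and with a floor at 32. LOC100037642 passed with a difference of 0.70 but overlapping arrays.

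Falls with a gene symbol were few. LOC543448, a dim probe set at the brightness limit, gave 87.5, 86.2 and 99.8 in Sp. LK and 218, 117 and 133 in C. NK. It was the only fall with a symbol and separate arrays, with a log2 difference of -0.72 (standard error 0.27), and it missed the thresholds without C. NK replicate 1, at -0.45. It also missed them in the methods' t-test and in the fit of the 6 arrays alone. LOC780638 passed at -0.59 with overlapping arrays.

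The 3 largest rises and the 3 largest falls with separate arrays were those of probe sets without a symbol. The largest rise was 2.17 on the log2 scale (standard error 0.78) and the second 1.92 (standard error 0.54). In both, C. NK replicate 1 was the highest of its group, at 376 and 420. The third gave 178, 331 and 352 in Sp. LK and 110, 70.6 and 65.4 in C. NK, a log2 difference of 1.79 (standard error 0.33, adjusted p of 0.778). Of these rises only the first missed the thresholds when an array was left out, without Sp. LK replicate 2 or without C. NK replicate 2.

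The largest fall was that of a probe set with 89.3, 27.97 and 104 in Sp. LK and 190, 391 and 509 in C. NK, a log2 difference of -2.40 (standard error 0.81). It missed the thresholds without Sp. LK replicate 2, the lowest array. The second gave 105, 49.5 and 82.2 in Sp. LK and 114, 209 and 1043 in C. NK, a difference of -1.95 (standard error 0.74). The third gave 319, 473 and 762 in Sp. LK and 871, 1162 and 5195 in C. NK, a difference of -1.84 (standard error 0.66). In these last falls C. NK replicate 3 stood far above the other arrays, and without it they were not past the thresholds, at -1.03 and -1.05. The second also missed them without Sp. LK replicate 2 and the third without Sp. LK replicate 1. Both also missed them in the methods' t-test and with a floor at 32.

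The list of key genes of the study gives a wider view of gene categories. Of the 37 probe sets that it gives for a rise of Sp. NK over C. NK, 12 were past the thresholds here as higher and 0 as lower, with a median log2 difference of 0.41, beside 1.15% higher and 0.399% lower of all brighter probe sets. Of the 39 given for a fall of Sp. LK below C. LK, 0 were higher and 2 lower, with a median of -0.34. Brighter were 34 of the 37 and 33 of the 39, and over all probe sets, dim ones included, 2.2% were higher and 1.3% lower. The study chose both lists on the same arrays, the first with the C. NK arrays and the second with the Sp. LK arrays. The shifts of both lists thus partly follow from the choice and are not independent evidence of a direction. The median over all brighter probe sets was 0.00377.

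Among the rises of the list, cytoplasmic membrane-bounded vesicle held 3 higher of 10 probe sets, mitochondrion 3 of 5, and iron ion binding, plastid and calcium ion binding 1 each. Over all brighter probe sets the share higher was 1.15%, and the study chose these members for a rise. The list repeats some probe sets: the iron ion binding one is LOC542992, and the vesicle category includes the glutathione transferase probe set without a symbol. In several categories, among them mitochondrion and vesicle, some probe sets share a cluster number, so these are not counts of separate genes. None of the 7 probe sets for transcription factor activity passed, and their log2 differences ranged from -0.16 to 0.47. The most different probe set of the vesicle category gave 6279, 5691 and 6972 in Sp. LK and 3520, 2543 and 2697 in C. NK. The groups were far apart relative to their spread, with a log2 difference of 1.12 (standard error 0.17), a 2.18-fold difference with an adjusted p of 0.288. In the mitochondrion category, the most different probe set gave 791, 1330 and 808 in Sp. LK and 427, 472 and 649 in C. NK, a log2 difference of 0.90 (standard error 0.28), and the next differed by 0.75 (standard error 0.25), both with separate arrays. The called probe set for calcium ion binding differed by 0.75 with overlapping arrays. It missed the thresholds in the methods' t-test, without Sp. LK replicate 3, at 0.48, or without C. NK replicate 3, at 0.57. The called probe set for plastid differed by 0.67 with separate arrays. It missed the thresholds without Sp. LK replicate 2, at 0.57, or without C. NK replicate 3, at 0.50.

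Among the falls of the list, 34 of the 39 differences were below 0, but most were within the spread. The called probe set for iron ion binding gave 313, 402 and 261 in Sp. LK and 745, 505 and 396 in C. NK, a log2 difference of -0.73 (standard error 0.23) with arrays that just overlapped. It missed the thresholds in the methods' t-test, without Sp. LK replicate 3, at -0.58, or without C. NK replicate 1, at -0.48. The called vesicle probe set gave 124, 60.6 and 198 in Sp. LK and 171, 268 and 1145 in C. NK, a difference of -1.71 (standard error 0.75) that was not past the thresholds without C. NK replicate 3, at -0.91, or without Sp. LK replicate 1 or 2. It also missed them in the methods' t-test, with no variance trend, with a floor at 32 and with array weights. The methyltransferase probe set had a log2 difference of -1.01 and a standard error of 0.62, again with C. NK replicate 3 at 2019 against 314 and 523 in the other C. NK arrays. It passed the thresholds with the replicate number as a block or without C. NK replicate 1, and its difference ranged from -1.58 to -0.24 over the alternatives. The phosphorylation probe set of LOC778380 had -0.57 with separate arrays, just short of the fold threshold. It passed after quantile normalization, after median centring, without Sp. LK replicate 3 or without C. NK replicate 1.

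**Figure D4:**
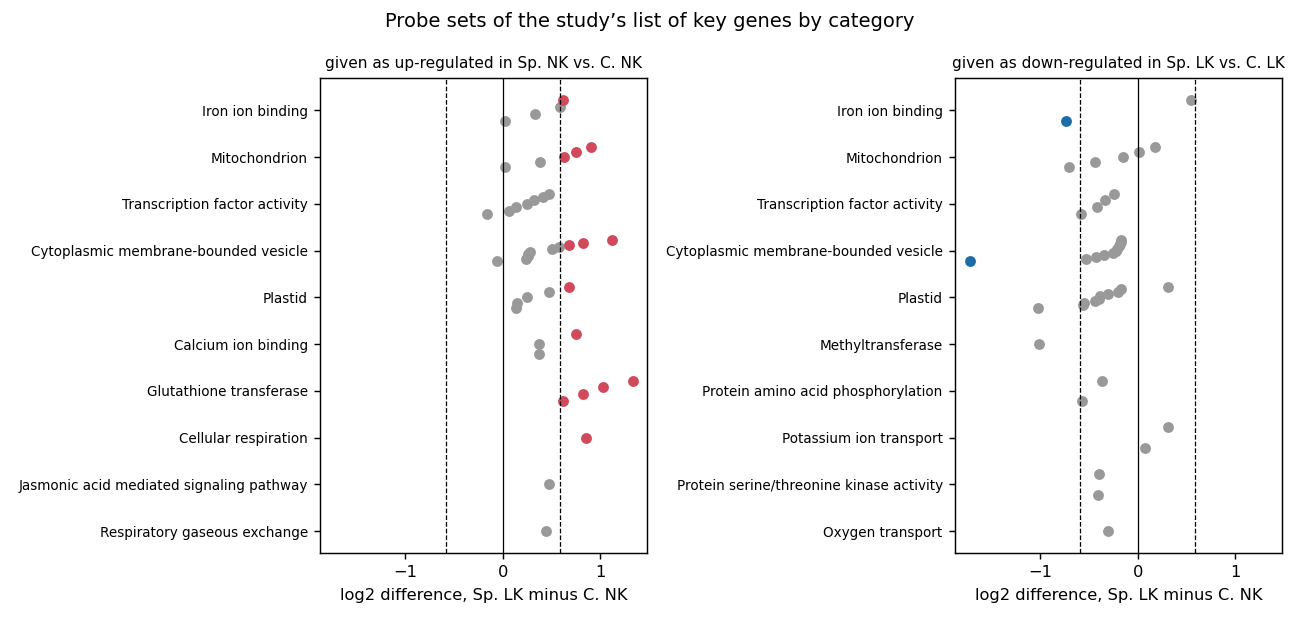
Log2 difference, Sp. LK minus C. NK (horizontal axis), of each probe set of the study’s list of key genes by category, with those given for a rise of Sp. NK over C. NK on the left and those given for a fall of Sp. LK below C. LK on the right; dashed lines mark 1.5-fold, red is higher and blue lower at the study thresholds. The left side holds 12 higher probe sets of 37 and the right side 2 lower of 39, and a probe set that the list gives under several categories is drawn in each.

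Of the 80 brighter members of the 15 gene lists drawn from the annotation, 0 passed the study thresholds. With 1.54% of all brighter probe sets past them in either direction, this is near the background share and is no result about these genes, whose differences and intervals are given instead. Of 12 brighter probe sets of tubulins and profilin, which build and regulate the cytoskeleton, 11 had an interval within 1.5-fold. The exception, a probe set of the alpha-tubulin gene TUBA, ranged from 92.7 to 741 in Sp. LK and from 258 to 1981 in C. NK, while the brightest TUBA probe set differed by -0.16. Of 9 brighter translation probe sets 7 lay within 1.5-fold, among them those of the elongation factor gene TEF1 at -0.14 and -0.10 and of the initiation factor gene eIF4E at -0.06. The 4 probe sets of methyl group transfer, including SAHH, which recycles S-adenosylhomocysteine, all lay within 1.5-fold. So did the 3 of sugar metabolism, among them the fructan exohydrolase gene 1-FEH at 0.11.

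Core histones, which package DNA and are made in dividing cells, had a median log2 difference of -0.25 over 17 brighter probe sets, of which 15 were below 0, also after quantile normalization (median -0.21) and median centring (-0.26). None passed, 4 of the 17 had an interval within 1.5-fold, and several probe sets represent each of the 5 genes. Below 0 were also 13064 of the 26541 brighter probe sets and 54 of the 80 brighter members of the 15 lists, histones included. The median over these 80 was -0.10. The brightest histone probe set, of the H2A gene LOC732714, gave 18279, 13522 and 21021 in Sp. LK and 19395, 17885 and 24585 in C. NK. These ranges overlapped, and the difference was -0.24 with a 95% interval from -0.60 to 0.12. The 3 probe sets of LOC100037594, the deoxymugineic acid synthase gene DMAS1 used to make the iron chelators of grasses, had differences of -0.30, -0.33 and -0.35. Their intervals all included 0.

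Defence genes varied too widely among arrays for a comparison. PR5, a thaumatin-like pathogenesis-related gene (LOC543292), gave 1027, 1108 and 414 in Sp. LK and 420, 153 and 261 in C. NK, a log2 difference of 1.60 with a standard error of 0.92. In C. LK it ranged from 21.8 to 724. Among redox genes, the gene PER1 (LOC543108) had a difference of -0.35 in one probe set and 0.02 in the other. The dehydrin-type gene Rab15 (LOC543293) had -0.06 (standard error 0.32) in its brighter probe set and 0.68 (standard error 0.49) in a dimmer one, and the intervals of both included 0.

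Among photosynthesis genes, the brighter probe sets of rbcL, the large subunit of Rubisco, differed in direction. One gave 2751, 2433 and 2167 in Sp. LK and 3261, 4302 and 3359 in C. NK, a log2 difference of -0.57 (standard error 0.15) with separate arrays. The brightest had -0.43, also with separate arrays. Of the dimmer ones, 1 had 0.51 and another -0.03. None was past the fold threshold, but after median centring 1 of the photosynthesis probe sets passed as lower, at -0.59.

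**Figure D5:**
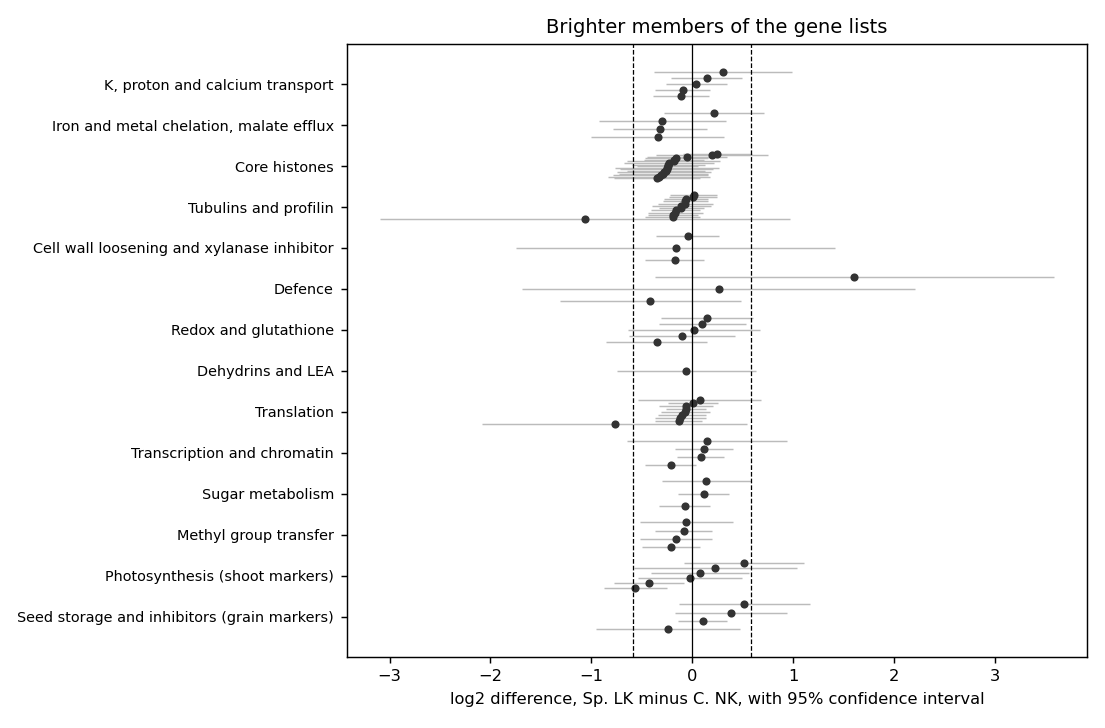
Log2 difference, Sp. LK minus C. NK, with its 95% confidence interval for each brighter member of the gene lists drawn from the annotation; dashed lines mark 1.5-fold. Most points lie inside the dashed lines, and 54 of all 80 points, among them 15 of the 17 core histone points, are below 0. The widest intervals are those of the dimmer TUBA probe set and the defence genes.

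The brightest probe sets with a symbol and an interval within 1.5-fold show the precision reached. SAHH had a mean signal of 32773 ± 4963 (SD, n = 3) on the low-K side, where C. NK had 37678 ± 2769 (SD, n = 3), with a log2 difference of -0.21 (95% interval -0.50 to 0.08). LOC778417 had 34827 ± 881 (SD, n = 3) and 38955 ± 1260 (SD, n = 3), a difference of -0.16. TCTP, a translationally controlled tumour protein gene, LOC542913, TEF1 and LOC543231 lay between -0.24 and -0.12, and 6 of the 6 were below 0. After quantile normalization the 6 lay between -0.09 and 0.01, with 5 below 0, so their common direction depended on the scaling.

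The direction of the differences was also read in arrays that share no member with this comparison, those of C. LK and Sp. NK. Both comparisons come from 1 fit whose estimate of the spread uses all 12 arrays, so their calls are not independent. The shares over all brighter probe sets given below are not matched for spread or signal. Of the 304 brighter probe sets with a rise in Sp. LK over C. NK, 64 were lower in C. LK than in Sp. NK at the study thresholds and 3 were higher. The 64 are 21.1% of the 304 and 12.3% of the 520 brighter probe sets lower in C. LK than in Sp. NK, where 1.96% of all brighter probe sets were lower and 1.12% higher. Of the 106 lower in Sp. LK than in C. NK, 16 (15.1%) were higher in C. LK than in Sp. NK and 2 (1.89%) were lower. The 16 are 5.39% of the 297 brighter probe sets higher in C. LK than in Sp. NK. LOC542993, with -1.25 on the log2 scale in C. LK minus Sp. NK, and LOC542991, with -0.86, are among the 64. The study listed both for a rise in Sp. NK over C. NK, so their lower level in C. LK than in Sp. NK may partly follow from that choice. Both sides of the split roots may come from the same plants, and deviations they share would add to such opposite counts. Their part was not tested.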

How the data were processed

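Total RNA of roots was hybridised to 12 Affymetrix Wheat Genome Arrays, with 3 arrays a group (Sp. LK, C. NK, Sp. NK, C. LK). The deposited log2 values, 1 per probe set and array, are signals that the authors had normalized by MAS 5.0 in GeneSpring. Trimmed mean signals are alike on all arrays, so differences are relative to that shared level. On each array, 30.5% to 33.9% of probe sets had a linear signal under 32, where fold changes are unstable. Detection calls and raw intensities were not used here.

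Differences were tested with limma 3.58.1 under R 4.3.3 (lmFit of 4 group means to all 12 arrays, then eBayes with a variance trend), with no further scaling, and adjusted by Benjamini and Hochberg over 61115 probe sets. The 95% intervals come from the same fit. Replicate numbers of Sp. LK and C. NK did not pair the arrays (correlations of their deviations -0.24, 0.30 and 0.02). Groups have 3 arrays, which limits the precision. The arrays are described as biological replicates pooled from plants, and p-values measure the spread between them.

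The named probe sets are those under K, oxygen, respiration and glutathione transferase in the list of key genes of the study and the 2 most different of each other category, the largest rises and falls with separate arrays (up to 12 each with a symbol, 3 each without), the brightest and any called member of each gene list, the 6 brightest with an interval within 1.5-fold, and other probe sets of these genes. Further list members are given as examples. Of 1273 probe sets with a symbol, 1272 were found in the RefSeq gene table (assembly IWGSC CS RefSeq v2.1), from which names alone were taken. Of 19 gene lists written as name patterns, 0 reached 5 genes, since the annotation holds no descriptions, and 15 lists were then written from its symbols. Members and lists were chosen with earlier results of these data known. Alternatives were the methods' t-test, the 6 arrays alone, no variance trend, a replicate block, quantile normalization, median centring, a floor at 32, array weights, the brighter probe sets alone and each array left out.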

Additional observations from a re-analysis of the deposited data

How the results depend on the processing

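Of the 410 brighter probe sets past the study thresholds, 88 (74 higher and 14 lower) passed under every alternative but the methods' t-test, under which 197 of the 410 passed. The t-test gave 162 higher and 57 lower brighter probe sets. A floor at 32 gave 761 higher and 347 lower among all probe sets and 8 after adjustment, and a fit with no variance trend gave 1 after adjustment. With the replicate number as a block, the counts were 321 higher and 137 lower among the brighter probe sets, 1323 and 831 among all, 0 after adjustment, and 15059 with an interval within 1.5-fold, and it moved none of these counts by over 1.5 times. Only 1 of 3 Sp. LK arrays correlated best with its own number. Leaving out 1 array gave 237 to 529 higher and 100 to 288 lower brighter probe sets, 950 to 1845 and 733 to 1047 among all, 0 after adjustment, 11463 to 15036 within 1.5-fold, and a distance between arrays of -0.00386 to 0.00183. The causes were not tested. Median centring put 67.8% of the brighter calls on the higher side. Of the 26 named probe sets past the thresholds, 10 kept their call under every alternative and 0 changed direction. Of 43 that were not, 15 passed under some alternative. A dim iron ion binding probe set of the list of key genes, at 0.55 with a wide spread, ranged from -1.07 to 1.59 over the alternatives. The 3 arrays per group and, for dim probe sets, signals near background limit what could be detected.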
